A study of Mus musculus with 4 samples.

Results

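Cbr3-positive hepatocytes are liver cells that carried hepatocyte transcripts together with Cbr3, which encodes a carbonyl reductase of the cytosol. They were chosen by their counts: at least 2 Cbr3 UMIs (unique molecular identifiers, each standing for 1 captured RNA molecule), no Afp UMI, no Ptprc UMI, and at least 4% of the nuclear-encoded UMIs in Alb, Apoa1, Apoa2, Apoc3 and Ttr together. Barcodes were kept from 300 genes and 500 UMIs upwards if mitochondrial genes took no more than 30% of the UMIs; of the 28199 kept, 7486 met the hepatocyte part of this rule and 191 met all of it. The 191 cells were 39 of 1829 hepatocytes in the low-AFP library, 143 of 2553 in the high-AFP library, 9 of 328 in the HCC library and 0 of 2776 in the control library. Because Cbr3, Afp, Ptprc and the 5 hepatocyte genes chose the cells, their values are a description and support nothing.

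The libraries were made from livers of C57BL/6 mice, and the series follows progression from obesity to hepatocellular carcinoma (HCC) on a diet the labels call CD-HFD. The low-AFP group was on CD-HFD by its title, the high-AFP group carries a control-diet title and a CD-HFD file name, the HCC group was a cell suspension of the tumour region with no diet in its label, and the control group was on control diet. AFP is alpha-fetoprotein, a fetal liver protein used as a tumour marker, and the labels do not say how low and high were set. All titles give 15 months, while the age field of every group gives 17 months. Livers were perfused with collagenase, and hepatocytes purified on 30% Percoll were mixed 1:1 with live-sorted non-parenchymal cells before 10x Genomics 3' sequencing. Each group was 1 library, so no test was made, every difference describes these libraries only, and intervals cover counting error only.

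The libraries held 80505127 UMIs in low-AFP, 97393862 in high-AFP, 65326793 in HCC and 71957655 in control, with median depths of 4840 to 7324 UMIs per kept barcode. Hepatocytes were deeper, with medians of 17784, 16587 and 11558 UMIs in low-AFP, high-AFP and control, but of 1992 UMIs in HCC. Between 3 and 29 barcodes were shared by a pair of libraries, and in 2 pairs 1 shared barcode was a Cbr3-positive hepatocyte. Scrublet's automatic threshold marked 0 to 12 barcodes per library and was not used. Ranked by its score at the rate expected from loading, 2 of the 143 high-AFP members and none of the 39 low-AFP or 9 HCC members were among the likely doublets, and no barcode was removed.

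Carbonyl reductases turn reactive aldehydes, ketones and quinones into alcohols, using NADPH. In rodent liver Cbr3 belongs with glutathione S-transferases, glutathione synthesis enzymes and quinone reductases among the genes switched on by the transcription factor NRF2 (Nfe2l2) when its inhibitor KEAP1 is inactivated by electrophiles. Hepatocytes also differ by their place along the lobule: periportal cells make urea and glucose, and pericentral cells make glutamine, bile acids and most drug-metabolising P450 enzymes.

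The share of hepatocytes that were Cbr3-positive was 2.13% in low-AFP (exact binomial 95% interval 1.52 to 2.90), 5.60% in high-AFP (4.74 to 6.56) and 2.74% in HCC (1.26 to 5.14). The control library had 0 of 2776, with an upper limit of 0.133% by the same exact interval. A single Cbr3 UMI was more common: any Cbr3 UMI was found in 5.36% of low-AFP, 15.4% of high-AFP, 13.7% of HCC and 0.180% of control hepatocytes. Further hepatocytes, 4 of low-AFP, 9 of high-AFP and 10 of HCC, had at least 2 Cbr3 UMIs together with an Afp UMI and are not members. The mixing of fractions and the depth of each library bear on these shares, and their part was not tested.

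Droplets also hold free RNA, so the same gene was counted in barcodes with T and NK cell markers. In high-AFP 14.4% of these barcodes had a Cbr3 UMI. After barcodes with at least 2000 UMIs were thinned to 2000, the shares were 5.76% of hepatocytes and 7.74% of T and NK barcodes. Whether a single Cbr3 UMI in a high-AFP hepatocyte came from free RNA was not tested. At least 2 Cbr3 UMIs were found in 2.38% of high-AFP T and NK barcodes (1.44 to 3.69), at a median of 4256 UMIs, and pooled Cbr3 was at 619 CPM in the members, against 31.2 CPM in these barcodes (UMI counts relative to all nuclear-encoded UMIs of the pool, on the usual CPM scale). For each Cbr3 UMI the high-AFP members held 2.45 Gsta1, 1.75 Gstm3, 3.20 Cyp2a5 and 25.2 Gstm1 UMIs, while the T and NK barcodes held 2.62, 1.28, 2.41 and 23.6 of the same genes. Free RNA at these ratios could add to any cell of this library, and its part in the members was not tested. In low-AFP and control the T and NK barcodes were at 7.60 and 1.75 CPM, with at least 2 Cbr3 UMIs in 0.491% and in 0 of 619 barcodes. Control hepatocytes were at 0.180 CPM of Cbr3, below the T and NK barcodes of that library. Barcodes with endothelial, macrophage or monocyte, and cholangiocyte markers held Cbr3 too. In high-AFP these 3 kinds were at 50.4, 29.1 and 324 CPM, against 37.9 CPM in all hepatocytes. In low-AFP they were at 14.2, 18.3 and 134 CPM, against 13.2 CPM. In control they were at 12.9, 14.7 and 31.5 CPM. Whether this Cbr3 was free RNA or that of the cells was not tested.

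Each member was set against up to 3 hepatocytes of the same library with 0 Cbr3 UMIs and a total UMI count within 20% of its own. This gave 117 Cbr3-zero cells for the 39 low-AFP members, 429 for the 143 high-AFP members and 26 for the 9 HCC members. Median depth was 26117 UMIs in members and 26163 in Cbr3-zero cells of low-AFP; the pairs of medians were 10811 and 10818 for high-AFP and 5213 and 5146 for HCC. Members had a lower median mitochondrial share than their Cbr3-zero cells in low-AFP (11.5% against 16.4%) and high-AFP (16.9% against 17.9%), and a higher one in HCC (7.18% against 4.43%). Ribosomal protein genes took 7.78% of the nuclear-encoded UMIs in low-AFP members, against 6.31% in Cbr3-zero cells, and 6.89% against 5.87% in high-AFP. The part of these differences in the results was not tested. Values below are CPM of the UMIs summed over the cells of a pool, where 1 UMI in the members is 1.12 CPM in low-AFP, 0.577 CPM in high-AFP and 14.6 CPM in HCC. Log2 folds were taken of members over Cbr3-zero cells after adding 10 CPM, which makes folds of low genes smaller, and a gene was counted as higher or lower past 2-fold.

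Among members, Cbr3 itself varied widely. It had a median of 367 CPM per cell in low-AFP (39.3 to 3584), 830 CPM in high-AFP (52.4 to 4934) and 697 CPM in HCC (55.3 to 2946). The label names Gsta1 and Gstm3 beside Cbr3, and both were present in most members. Gsta1, an alpha-class glutathione S-transferase, had a UMI in 89.7% of low-AFP members against 27.4% of Cbr3-zero cells, in 90.2% against 34.7% in high-AFP, and in 88.9% against 23.1% in HCC. Gstm3, of the mu class, had a UMI in 97.4% of low-AFP members against 31.6% of Cbr3-zero cells, in 88.1% against 25.2% in high-AFP, and in 9 of 9 against 13 of 26 cells in HCC. Most members of these libraries held the markers they are named for, while the median Cbr3-zero cell had 0 Gsta1 UMIs in all 3 libraries. Members were chosen with earlier results of these data known, so this is a description only.

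**Figure D1:**
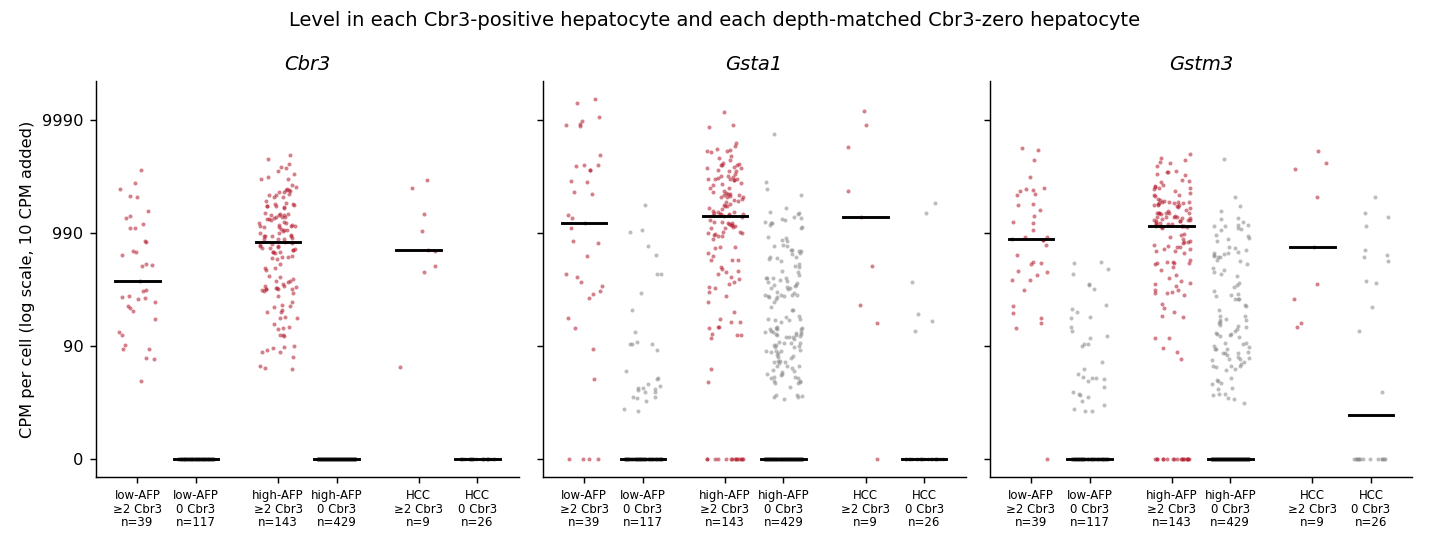
Cbr3, Gsta1 and Gstm3 in each Cbr3-positive hepatocyte (red) and each depth-matched Cbr3-zero hepatocyte (grey) of the low-AFP, high-AFP and HCC libraries, in CPM per cell on a log scale after adding 10 CPM, with black bars at the medians. Median Gsta1 was 1207, 1393 and 1379 CPM in the members and 0 in the Cbr3-zero cells, and the clouds of points overlap.

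The cells were hepatocytes by markers outside the rule too. All 12 further hepatocyte markers were detected in low-AFP and high-AFP members; Apob, the main protein of secreted lipoproteins, was at 2392 CPM in low-AFP members against 2547 CPM in Cbr3-zero cells, and at 2105 against 2160 CPM in high-AFP. Hnf4a, a transcription factor that defines hepatocytes, was at 210 CPM against 220.3 CPM in low-AFP and at 207 against 247 CPM in high-AFP. Of the 12 markers, 3 were at least 2-fold lower in low-AFP members (Tat, Cps1 and Fgb) and 4 in high-AFP members (the same with Serpina1c), and none was 2-fold higher, with median log2 folds of -0.59 and -0.64; of all genes 1.07% and 1.22% were 2-fold lower. Markers of other lineages were low: the 7 T and NK cell markers summed to 0 CPM in low-AFP members and 4.04 CPM in high-AFP members, against 1.16 and 2.53 CPM in Cbr3-zero cells. The 10 macrophage and monocyte markers summed to 34.8 and 56.5 CPM in members, against 30.3 and 68.5 CPM, and the 7 endothelial markers in the files to 11.2 and 61.7 CPM, against 28.3 and 54.7 CPM. B cell, neutrophil and stellate marker lists each summed to at most 3.46 CPM in members and 2.53 CPM in Cbr3-zero cells. The 7 cholangiocyte markers summed to 606 and 469 CPM in members, against 718 and 892 CPM, with Krt7, Krt19, Epcam and Cftr at 0 in both libraries' members. Alb, a rule gene that encodes albumin, was at 24926 CPM in low-AFP members against 38937 CPM, at 16793 against 23751 CPM in high-AFP, and at 25271 against 17476 CPM in HCC, while control hepatocytes had 64709 CPM.

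Across all genes, most transcripts lay within 2-fold between members and Cbr3-zero cells. In low-AFP 135 of 7401 genes (1.82%) were at least 2-fold higher in members and 79 (1.07%) at least 2-fold lower; in high-AFP 132 of 7298 (1.81%) were higher and 89 (1.22%) lower. The median log2 fold of all genes tested was 0.10 in low-AFP and 0.05 in high-AFP. Of the genes tested in both libraries, 81 were 2-fold higher in both, which is 64.8% of those higher in low-AFP and 66.9% of those higher in high-AFP. The lower genes shared 49, which is 64.5% of the low-AFP list and 56.3% of the high-AFP list, and 0 genes were 2-fold higher in one library and 2-fold lower in the other. The 9 HCC members held 68497 nuclear-encoded UMIs, so 1360 of 8128 genes (16.7%) passed upwards and 2469 (30.4%) downwards with 1 UMI worth more than the 10 CPM added. For HCC a few genes are given below, and its counts per list are not read. Among its 9 members 1 had 40809 UMIs, against a median of 5213. Single members held 47.0% of the Gsta1, 39.7% of the Gstm3 and 41.0% of the Alb UMIs of the HCC members. Some of the genes given had few UMIs, such as Srxn1 with 8 in Cbr3-zero cells and Pck1 with 12 in members.

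The genes highest in members relative to Cbr3-zero cells included several detoxification enzymes. Cyp2a5, a cytochrome P450 of the 2a subfamily, was at 1343 CPM in low-AFP members (1268 to 1421), against 43.8 CPM in Cbr3-zero cells, at 1981 CPM in high-AFP members (1915 to 2049), against 52.8 CPM, and at 1095 CPM in HCC members, against 151 CPM. Its ratio of members to Cbr3-zero cells was 30.6 in low-AFP (25.2 to 37.5) and 37.5 in high-AFP (33.2 to 42.7), and control hepatocytes had 29.4 CPM. Gsta1 was at 1449 CPM in low-AFP members (1371 to 1531), against 27.5 CPM, at 1516 CPM in high-AFP members (1459 to 1576), against 66.4 CPM, and at 2175 CPM in HCC members, against 140 CPM. In control hepatocytes Gsta1 was at 5.04 CPM, while T and NK barcodes had 81.9 CPM in high-AFP and 23.8 CPM in low-AFP. These barcodes were shallower than the Cbr3-zero cells, with medians of 4256 against 10818 UMIs in high-AFP and 5173 against 26163 in low-AFP. The part of free RNA in the Cbr3-zero level was not tested. Gstm3 was at 849 CPM in low-AFP members, against 50.4 CPM, at 1082 CPM in high-AFP members, against 48.7 CPM, and at 1139 CPM in HCC members, against 179 CPM. Gstm1, the main mu-class transferase of mouse liver, was the most abundant of these transcripts, at 12003 CPM in low-AFP members, against 1379 CPM, at 15583 CPM in high-AFP members, against 1993 CPM, and at 11519 CPM in HCC members, against 3782 CPM. Cyp2a4, nearly identical to Cyp2a5, was at 235 against 8.92 CPM in low-AFP and at 313 against 21.0 CPM in high-AFP, but lower in HCC members, at 1606 against 6747 CPM. The Cyp2a4 and Cyp2a5 genes, the Gsta1 and Gsta2 genes, and the Gstm genes are close copies, so which copy a UMI belongs to is uncertain.

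Antioxidant and carbonyl-reducing genes followed. Srxn1, sulfiredoxin, which restores oxidised peroxiredoxins, was at 356 CPM in low-AFP members (318 to 397), against 27.2 CPM, at 464 CPM in high-AFP members (432 to 497), against 47.1 CPM, and at 613 CPM in HCC members, against 44.8 CPM. Cbr1, the carbonyl reductase encoded beside Cbr3, was at 595 CPM in low-AFP members, against 84.6 CPM, at 498 CPM in high-AFP members, against 58.2 CPM, and at 657 CPM in HCC members, against 157 CPM. The other neighbours of Cbr3 on chromosome 16 differed less: Dopey2 was at 28.1 against 18.2 CPM in low-AFP and 14.4 against 19.3 CPM in high-AFP, and Morc3 at 13.5 against 12.8 CPM and 15.0 against 11.1 CPM. Rcan1 was at 32.6 against 14.4 CPM in low-AFP and 30.0 against 13.0 CPM in high-AFP, log2 folds of 0.81 and 0.79 with 10 CPM added. Setd4 was at 11.2 against 5.43 CPM in low-AFP, and Cldn14 at 3.37 against 10.1 CPM in low-AFP and 10.4 against 9.15 CPM in high-AFP. Abcc4, an export pump for organic anions, was found mainly in members, with 22 UMIs in low-AFP members against 1 UMI in Cbr3-zero cells and 78 against 4 UMIs in high-AFP. Its ratio was 63.7 in low-AFP (10.3 to 2628) and 57.8 in high-AFP (21.7 to 217), and 30.8% and 28.0% of members had a UMI. Cyp1a2, a pericentral P450, was at 358 against 46.5 CPM in low-AFP and at 427 against 46.9 CPM in high-AFP. Mt1, a metallothionein that binds zinc and copper, was at 652 against 107 CPM in low-AFP and at 552 against 99.3 CPM in high-AFP, but lower in HCC members, at 482 against 1242 CPM.

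The rest of the 15 genes most higher in high-AFP had smaller folds or rested on few cells. Gstm2 was at 283 against 61.3 CPM in low-AFP and 314 against 39.9 CPM in high-AFP, and Gsta2 at 506 against 50.8 CPM and 461 against 74.8 CPM, with 42.1% of its low-AFP member UMIs in 1 cell. Ces2c, a carboxylesterase, was at 40.4 against 8.15 CPM in low-AFP and 90.5 against 8.57 CPM in high-AFP. Fabp4, a fatty acid carrier best known from fat and endothelial cells, was at 43.8 against 21.3 CPM in low-AFP and 129 against 17.3 CPM in high-AFP, and did not reach 2-fold after the 10 CPM were added in low-AFP (log2 0.78). Rsad2, the interferon-induced viperin, had log2 folds of 2.87 and 2.88, but 1 cell held 85.7% of its UMIs in low-AFP members and 42.2% in high-AFP members. In all, 109 genes passed the naming rule upwards in high-AFP and 89 downwards.

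The 12 named genes lower in members included 4 of the periportal list. Serpina1e, an alpha-1-antitrypsin gene, was at 69.6 CPM in low-AFP members, against 456 CPM, and at 46.7 CPM in high-AFP members, against 777 CPM, with log2 folds of -2.55 and -3.80; it too has close copies. Hsd17b6, a periportal steroid dehydrogenase, was at 26.9 against 287 CPM in low-AFP and 32.3 against 265 CPM in high-AFP, and was found in 23.1% and 18.2% of members, against 64.1% and 54.1% of Cbr3-zero cells. Pck1, the rate-limiting enzyme of gluconeogenesis, was at 483 CPM in low-AFP members (438 to 531), against 1932 CPM, and at 469 CPM in high-AFP members (438 to 503), against 1876 CPM, a ratio of 0.250 in both. Control hepatocytes had 1844 CPM of Pck1, close to the Cbr3-zero cells. Hal, which starts histidine breakdown, was at 51.6 against 264 CPM and 78.4 against 303 CPM, and Nnmt, a nicotinamide methyltransferase, at 47.2 against 267 CPM and 95.1 against 340 CPM in low-AFP and high-AFP. The receptor Ntrk2 was at 11.2 against 75.6 CPM and 20.2 against 105 CPM, Igfbp2, a binding protein of insulin-like growth factors, at 38.2 against 125 CPM and 28.3 against 138 CPM, and the lysosomal protease Ctsc at 19.1 against 106 CPM and 23.1 against 98.3 CPM. Mmd2 was nearly absent from members, at 3.37 against 46.2 CPM in low-AFP and 7.50 against 51.8 CPM in high-AFP. The major urinary protein genes Mup3 (2226 against 6527 CPM, and 3490 against 11526 CPM) and Mup21 (64.0 against 180 CPM, and 209 against 844 CPM) were lower in members of both libraries, and their close copies make the gene uncertain. Hamp, the iron hormone hepcidin, was at 942 against 3523 CPM in high-AFP, while in low-AFP 1006 against 1438 CPM fell short of 2-fold, with 45.8% of the member UMIs in 1 cell. In HCC the pool was too shallow for most of these genes, and Pck1 was at 175 CPM in members (90.5 to 306), against 201 CPM (141 to 279).

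**Figure D2:**
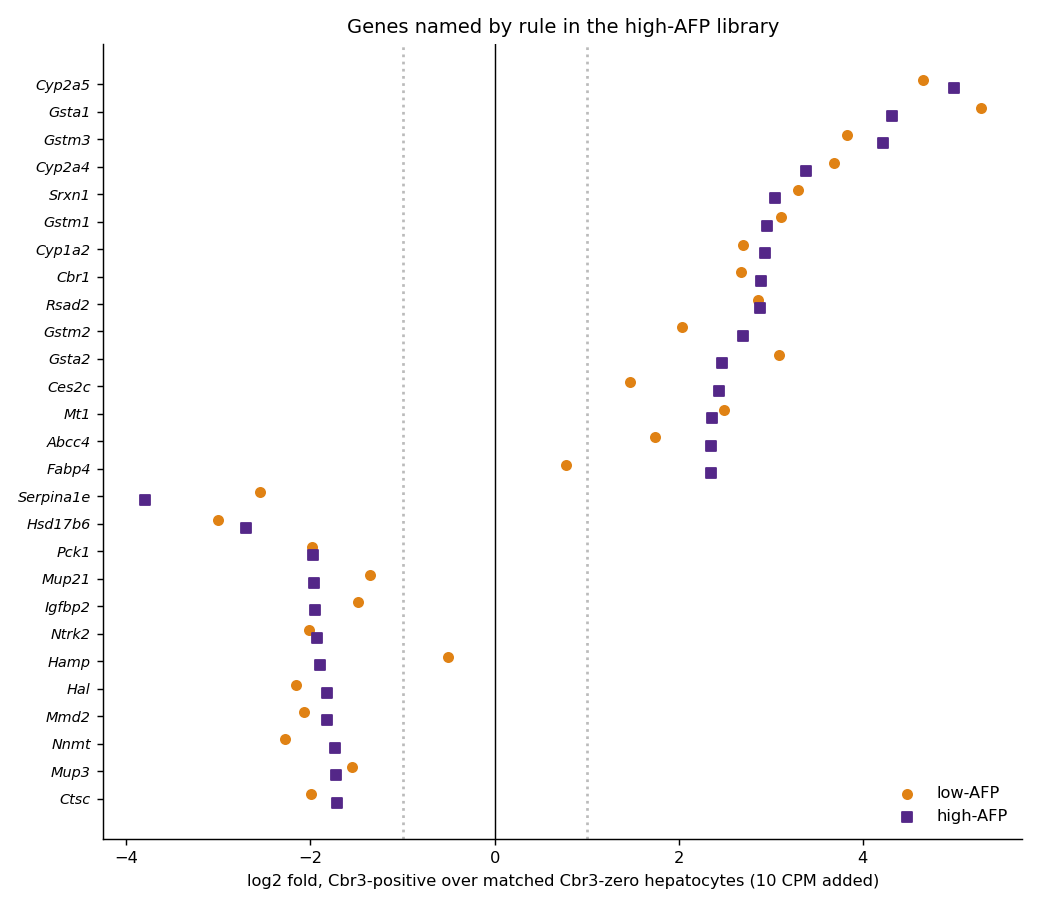
Log2 fold of Cbr3-positive over depth-matched Cbr3-zero hepatocytes, with 10 CPM added to both, for the 15 genes most higher and 12 most lower in high-AFP, in low-AFP (orange circles) and high-AFP (purple squares), with dotted lines at 2-fold. Of these 27 genes, Fabp4 (0.78) and Hamp (-0.51) lay inside the dotted lines in low-AFP, and no gene changed side.

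NRF2 target genes of redox defence were higher as a group. Of the 28 genes of this list 25 passed the filter of 10 CPM in either pool; these were all higher in members in both libraries, 17 of them at least 2-fold in low-AFP and 20 in high-AFP, beside 1.82% and 1.81% of all genes, and none was 2-fold lower. The median log2 fold was 1.43 and 1.44, and the list summed to 40529 CPM in low-AFP members against 19966 CPM, and to 47070.0 CPM in high-AFP members against 20368 CPM. Over the alternatives the lowest counts were 14 of 25 in low-AFP, with 50 CPM added, and 12 of 24 in high-AFP, at a hepatocyte share of 8%. Since the cells were chosen by a gene of the same pathway and the list was chosen with earlier results known, the count is a description. Some of its genes, such as Nqo1, Hmox1, Gpx2 and Abcc4, reached 10 CPM in the members only. These could only come out higher, so the counts were in part fixed by the filter. Gclc, the catalytic subunit of glutathione synthesis, was at 1398 against 456 CPM in low-AFP and 2127 against 482 CPM in high-AFP, while its partner Gclm was below 2-fold, at 693 against 449 CPM and 689 against 383 CPM. Nqo1, the quinone reductase often used to read NRF2 activity, was at 69.6 against 9.31 CPM and 86.5 against 9.54 CPM, and had a UMI in 56.4% and 42.7% of members, against 17.1% and 10.3% of Cbr3-zero cells. Txnrd1, thioredoxin reductase, was at 296 against 83.8 CPM and 437 against 116 CPM, its substrate Txn1 at 1960 against 723 CPM and 2310 against 845 CPM, and Gsr, glutathione reductase, at 245 against 83.4 CPM and 344 against 94.6 CPM.

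The list also covers NADPH supply, haem breakdown, iron storage and conjugation. Pgd and Tkt of the pentose phosphate pathway were at 135 against 36.1 CPM and 204 against 71.0 CPM in low-AFP, and at 218 against 47.3 CPM and 223 against 78.5 CPM in high-AFP. Ugdh, which makes the sugar for glucuronidation, was at 492 against 111 CPM in low-AFP and 657 against 151 CPM in high-AFP. Blvrb, a biliverdin reductase, was at 714 against 173 CPM and 844 against 165 CPM, and Ftl1, the ferritin light chain, at 11428 against 5357 CPM and 13168 against 5221 CPM. Hmox1, haem oxygenase, was at 57.3 against 6.59 CPM in low-AFP, where 1 cell held 82.4% of the UMIs, and at 47.3 against 9.73 CPM in high-AFP, with 35.4% in 1 cell. Gpx2, a glutathione peroxidase better known from the gut, was at 25.8 CPM in low-AFP members, against 0 UMIs in Cbr3-zero cells (at least 22.2-fold higher, against a floor of 3 UMIs over the pool), and at 19.6 against 0.195 CPM in high-AFP. In low-AFP Gpx2 was found in 6 of 39 members, with 52.2% of its UMIs in 1 cell. Gclm, Cat, Osgin1, Abcc2 and Abcc3 were below 2-fold in both libraries. The regulators of the pathway were all higher by small folds, and none of 7 tested in low-AFP or of 8 in high-AFP reached 2-fold. Their medians were 0.29 and 0.39, against 0.10 and 0.05 for all genes. Nfe2l2 itself was at 93.2 against 73.7 CPM and 78.4 against 71.5 CPM, with Keap1 at 49.4 against 40.3 CPM and 58.8 against 37.4 CPM.

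The glutathione S-transferases, which join glutathione to electrophiles, differed gene by gene, also within a class. Of 21 measured, 10 were at least 2-fold higher in low-AFP members and 9 in high-AFP members (1.82% and 1.81% of all genes), none was 2-fold lower, and the median log2 fold was 0.80 and 0.81. Their sum was 26907 CPM in low-AFP members against 9602 CPM, and 32163 CPM in high-AFP members against 10828 CPM, of which Gstm1 made up the most. Beside Gsta1, Gsta2, Gstm1, Gstm2 and Gstm3, the pi-class Gstp1 was at 1796 against 411 CPM and 1368 against 441 CPM, Gsta4, which removes lipid aldehydes, at 309 against 80.7 CPM and 263 against 99.1 CPM, and Gstm4 at 193 against 30.6 CPM and 197 against 42.1 CPM. The membrane-bound Mgst3 was at 223 against 61.3 CPM in low-AFP and 274 against 55.7 CPM in high-AFP. Relatives of these genes stayed below 2-fold: the alpha-class Gsta3 was at 2602 against 1492 CPM and 2800.5 against 1563 CPM, the mu-class Gstm6 at 111 against 62.1 CPM and 116 against 61.9 CPM, and the membrane-bound Mgst1 at 5592 against 4857 CPM and 7179 against 5262 CPM. The mu-class Gstm5 and Gstm7 had log2 folds of -0.08 and -0.24 in low-AFP and of -0.45 and -0.15 in high-AFP. Gstt1, of the theta class, was at 198 against 194 CPM and 179 against 162 CPM, and Gstz1, of tyrosine breakdown, was at 322 against 443 CPM and 362 against 491 CPM.

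Carbonyl and aldehyde metabolism was higher for a few genes. Of 23 genes tested in low-AFP 4 were at least 2-fold higher and 1 lower, and of 22 in high-AFP 5 were higher and 1 lower, with medians of 0.40 and 0.31. The shares of all genes were 1.82% higher and 1.07% lower in low-AFP, and 1.81% and 1.22% in high-AFP. After Cbr1, the aldo-keto reductase Akr1c19 was at 183 against 31.0 CPM in low-AFP and 223 against 57.6 CPM in high-AFP, and Ephx1, microsomal epoxide hydrolase, at 264 against 87.7 CPM and 295 against 74.6 CPM. Aldh1b1, a mitochondrial aldehyde dehydrogenase, was lower in members, at 52.8 against 206 CPM and 61.7 against 223 CPM, and the abundant Aldh2 was near equal, at 996 against 908 CPM and 1091 against 978 CPM. Cytochrome P450 genes passed in both directions: 4 of 36 tested in low-AFP and 4 of 34 in high-AFP were at least 2-fold higher, 5 and 2 lower, with medians of -0.31 and -0.01, beside the same shares of all genes. The same 4 were higher in both, Cyp2a5, Cyp2a4, Cyp1a2 and the fatty acid hydroxylase Cyp4a12a (94.6 against 36.2 CPM in high-AFP). Cyp4f14 and Cyp4f15 were lower in both, and the main pericentral P450 Cyp2e1 was at 569 against 755 CPM in low-AFP and 837 against 785 CPM in high-AFP. Among the glucuronosyltransferases and sulfotransferases 2 of 12 were higher in low-AFP and 3 of 12 in high-AFP, with 0 and 1 lower and medians of -0.47 and -0.19. The Ugt2b35 level was 328 against 85.3 CPM and 285 against 66.2 CPM, and that of Ugt2b34 552 against 262 CPM and 475 against 192 CPM.

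**Figure D3:**
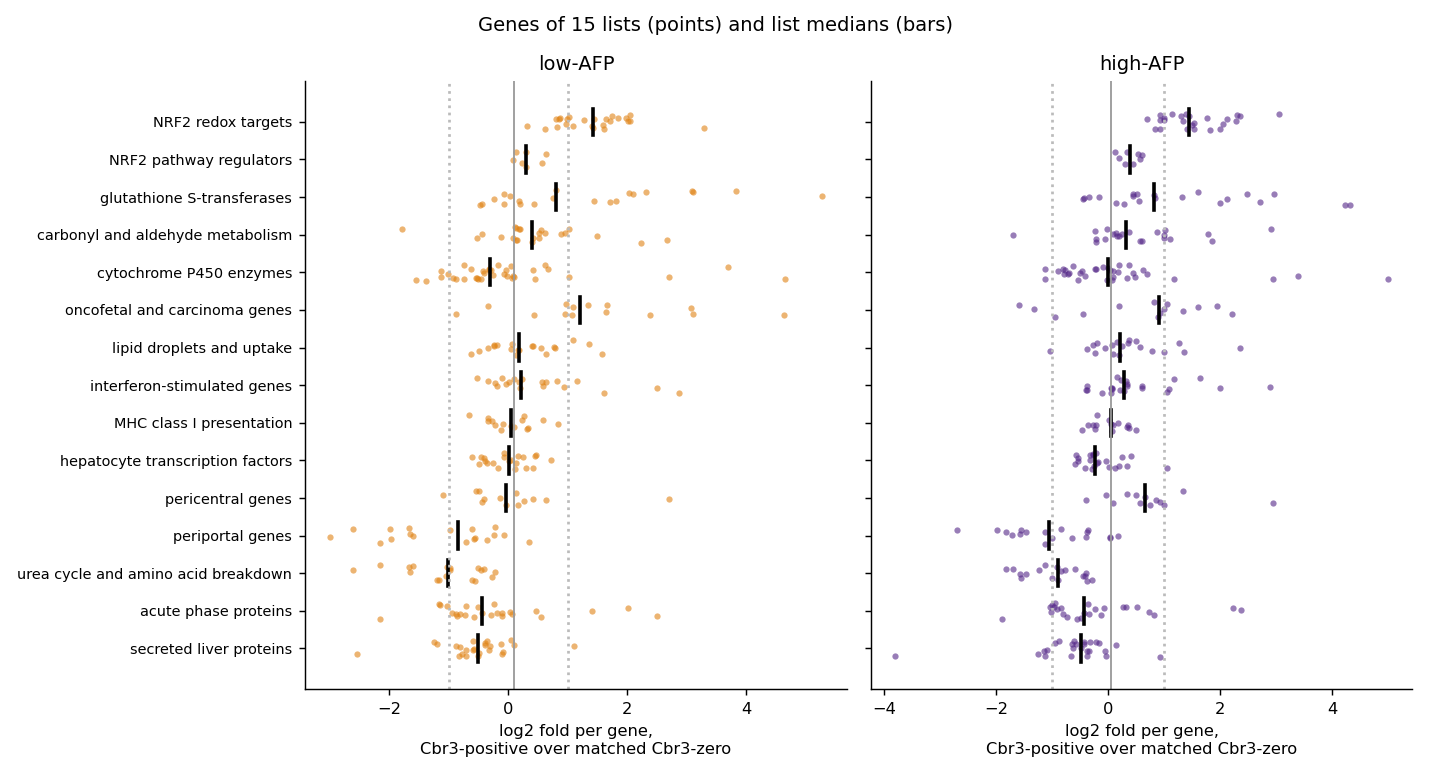
Each point is 1 gene of a list, placed at its log2 fold of Cbr3-positive over depth-matched Cbr3-zero hepatocytes in low-AFP and in high-AFP; black bars are list medians, the grey line is the median of all genes tested and dotted lines mark 2-fold. NRF2 redox targets (medians 1.43 and 1.44) lie to the right, and periportal genes (-0.84 and -1.06) and urea cycle and amino acid genes (-1.01 and -0.90) to the left.

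Periportal genes were lower in members. Of 18 genes, all tested in both libraries, 8 were at least 2-fold lower in low-AFP members and 10 in high-AFP members (1.07% and 1.22% of all genes), none was 2-fold higher, and the medians were -0.84 and -1.06. Beside Hsd17b6, Pck1, Hal and Ctsc, the serine dehydratase Sds was at 33.7 against 257 CPM in low-AFP and 107 against 340 CPM in high-AFP, the glutaminase Gls2 at 60.6 against 214 CPM and 107 against 312 CPM, and Cps1, which opens the urea cycle, at 557 against 1714 CPM and 740 against 2206 CPM. A periportal P450, Cyp2f2, did not follow, at 618 against 646 CPM in low-AFP and 793 against 701 CPM in high-AFP. Genes of the urea cycle and amino acid breakdown, a list that shares Sds, Hal, Gls2, Cps1, Arg1, Asl and Ass1 with the first, were all lower: 9 of 18 at least 2-fold in low-AFP and 8 of 18 in high-AFP, beside 1.07% and 1.22% of all genes, with medians of -1.01 and -0.90. Tat, which starts tyrosine breakdown, was at 207 against 671 CPM and 381 against 1261 CPM, Hpd, of the same route, at 397 against 904 CPM and 513 against 1214 CPM, and Otc of the urea cycle at 267 against 559 CPM and 368 against 635 CPM. G6pc, which releases free glucose, was at 175 against 481 CPM and 184 against 438 CPM, and Aldoa of glycolysis was at 131 against 48.1 CPM in low-AFP. Over the 20 glycolysis and gluconeogenesis genes tested in low-AFP 2 were higher and 2 lower, and over 17 in high-AFP 1 was higher and 2 lower, with medians of 0.11 and 0.02. Of all genes 1.82% and 1.81% were 2-fold higher.

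Pericentral genes lay mostly higher in high-AFP members but not in low-AFP members. Of 13 tested, 1 was 2-fold higher and 1 lower in low-AFP members, with a median of -0.04, and 2 were higher and none lower in high-AFP members, with a median of 0.65, and the difference between the libraries was not tested. By any fold, 6 of the 13 were higher and 7 lower in low-AFP, and 11 and 2 in high-AFP. Of all genes 1.82% and 1.81% were 2-fold higher, and 1.07% and 1.22% lower. Cyp1a2 was higher in both, while Glul, glutamine synthetase, was at 212 against 465 CPM in low-AFP and 426 against 220.2 CPM in high-AFP, and 1 cell held 70.4% of the Glul UMIs of the low-AFP members. The markers of the first cell layers around the central vein were barely detected, with Lgr5 at 2.25 against 3.88 CPM and 2.31 against 1.36 CPM, and Axin2 at 7.86 against 4.27 CPM and 1.73 against 1.75 CPM. Hepatocyte transcription factors were close to equal: none of 21 reached 2-fold in low-AFP, and of 22 in high-AFP only Nr1i3, the constitutive androstane receptor, did, at 68.6 against 28.0 CPM, with medians of 0.01 and -0.23.

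Secreted liver proteins were mostly lower in members, 22 of 25 in low-AFP and 23 of 25 in high-AFP by any fold. The rule itself holds 5 such genes. Of 25 tested 1 was 2-fold higher and 3 lower in low-AFP, and none higher and 5 lower in high-AFP, with medians of -0.50 and -0.48; among all genes 1.82% and 1.81% were higher and 1.07% and 1.22% lower. Apoa5, a regulator of plasma triglyceride, was at 403 against 967 CPM and 492 against 1084 CPM. The growth hormone and sex-biased genes had medians of -0.78 and -0.67, with 2 higher and 6 lower among 17 tested in low-AFP and among 19 in high-AFP; Mup20, the most abundant of them, was at 22596 against 23742 CPM and 32317 against 43593 CPM. Of 25 acute phase genes 3 were higher and 4 lower in low-AFP members, and 2 were higher and 4 lower in high-AFP members, with medians of -0.44 and -0.43, beside the shares of all genes just given. The higher ones were the metallothioneins Mt1 and Mt2 (Mt2 at 92.1 against 15.1 CPM and 92.8 against 12.1 CPM) and, in low-AFP, Orm2, and the fibrinogen chains Fga, Fgb and Fgg were lower in both, with Fga at 1080.0 against 2397 CPM and 948 against 1949.8 CPM. Iron genes were split: 2 of 12 were higher and 1 lower in low-AFP, and 3 of 12 higher and 2 lower in high-AFP, with medians of 0.01 and -0.30. Hmox1 and the ferritin chain Ftl1 were past 2-fold higher in both, and the ferritin chain Fth1 in high-AFP only. Hamp2 was lower in both, and Hamp in high-AFP. Hmox1, Ftl1 and Fth1 are also counted in the NRF2 list.

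Part of a list of fetal liver and carcinoma genes was higher, without the fetal genes Gpc3, H19, Igf2 and Igf2bp3. Of 14 tested in each library, 9 were at least 2-fold higher and none lower in low-AFP members, and 5 were higher and 2 lower in high-AFP members, with medians of 1.21 and 0.91, where 1.82% and 1.81% of all genes were higher and 1.07% and 1.22% lower. The high-AFP count of higher genes ran from 2 with 50 CPM added to 8 at a hepatocyte share of 8%. Ly6d, a surface protein, was at 1051 CPM in low-AFP members (985 to 1120), against 116 CPM, and at 992 CPM in high-AFP members (946 to 1040), against 208 CPM, while control hepatocytes had 7.28 CPM. S100a11, a calcium-binding protein, was at 181 against 26.4 CPM and 201 against 45.2 CPM, galectin-3 (Lgals3) at 103 against 3.10 CPM and 41.5 against 7.01 CPM, and annexin A2 (Anxa2) at 149 against 40.3 CPM and 127 against 44.4 CPM. S100a6 had 259 CPM in low-AFP members, but 95.7% of it came from 1 cell, and 4.61 against 3.12 CPM in high-AFP. Osteopontin (Spp1) was lower in high-AFP members, at 225 against 577 CPM, as was Tff3, at 8.07 against 44.2 CPM. Gpc3, H19, Igf2, Igf2bp3, Epcam, Krt19, Prom1 and Vil1 had no UMI in the members of low-AFP or high-AFP. Members had to lack Afp UMIs, and the part of this in the fetal genes was not tested. With Cbr3-zero cells also held to no Afp UMI, 9 genes were higher and 0 lower in low-AFP, and 6 and 2 in high-AFP. Lgals3 reached 10 CPM in the members only, so it could only come out higher. In HCC Ly6d ran the other way, at 803 CPM in members, against 2769 CPM in Cbr3-zero cells, which unlike the members could carry Afp.

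Interferon-stimulated genes were higher for single genes: 4 of 20 in low-AFP and 6 of 23 in high-AFP, none lower, with medians of 0.21 and 0.28, beside 1.82% and 1.81% of all genes. At a hepatocyte share of 8% these counts were 2 higher and 1 lower in low-AFP and 1 higher and 1 lower in high-AFP, and at 5 or more Cbr3 UMIs 1 was higher in high-AFP. Ubd, a ubiquitin-like protein induced by cytokines, was at 132 against 15.1 CPM in low-AFP and 142 against 28.4 CPM in high-AFP, with a UMI in 26 of 39 and 70 of 143 members. Ifit1 and Rsad2 rested on single cells, with 33 of 44 Ifit1 UMIs of the low-AFP members and 80 of 167 of the high-AFP members in 1 cell. Genes of MHC class I presentation were level, with none of 15 past 2-fold in either library and medians of 0.04 and 0.05.

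Among the members the detoxification transcripts went along with the number of Cbr3 UMIs. In high-AFP, hepatocytes with 1 Cbr3 UMI had Gsta1 at 178 CPM, and those with 2, 3 to 4, 5 to 9 and at least 10 had 356, 1067, 1530.3 and 2553 CPM. Over the same classes Srxn1 was at 64.8, 138, 447, 455 and 703 CPM, and Cyp2a5 at 213, 809, 1551, 2533 and 2655 CPM. Pck1 ran the other way, at 1332, 744, 586, 480.1 and 209 CPM, and Alb, a rule gene, at 21584, 18839, 17949, 19884 and 12682 CPM. The classes held 236, 39, 38, 34 and 32 cells with median depths of 7182, 7773, 6350, 11049 and 20358 UMIs, so class and depth cannot be told apart for the top class. In low-AFP, with 52, 9, 10, 8 and 12 cells, Gsta1 was at 132, 1331, 413, 644 and 2590.1 CPM and Pck1 at 996, 641, 656, 338 and 377 CPM, so the order was not even there. Sorting the members by Cbr3 CPM in place of UMIs turns the depth round: members under 100, at 100 to under 500 and at 500 or more Cbr3 CPM had median depths of 32751, 20445 and 6898 UMIs in high-AFP. Gsta1 then was at 245, 1017 and 2455 CPM, Gstm1 at 4870, 12652 and 22350 CPM and Pck1 at 711, 595 and 263 CPM in 10, 40 and 93 cells. In low-AFP the same classes of 6, 14 and 19 cells had Gsta1 at 211, 827 and 5167 CPM, Gstm1 at 4639, 12946 and 21398 CPM and Pck1 at 726, 462 and 145 CPM. Both sortings use the gene that chose the cells, and with at least 2 Cbr3 UMIs required, a shallow cell has a high Cbr3 CPM. They describe the members only, and the part of depth was not tested.

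**Figure D4:**
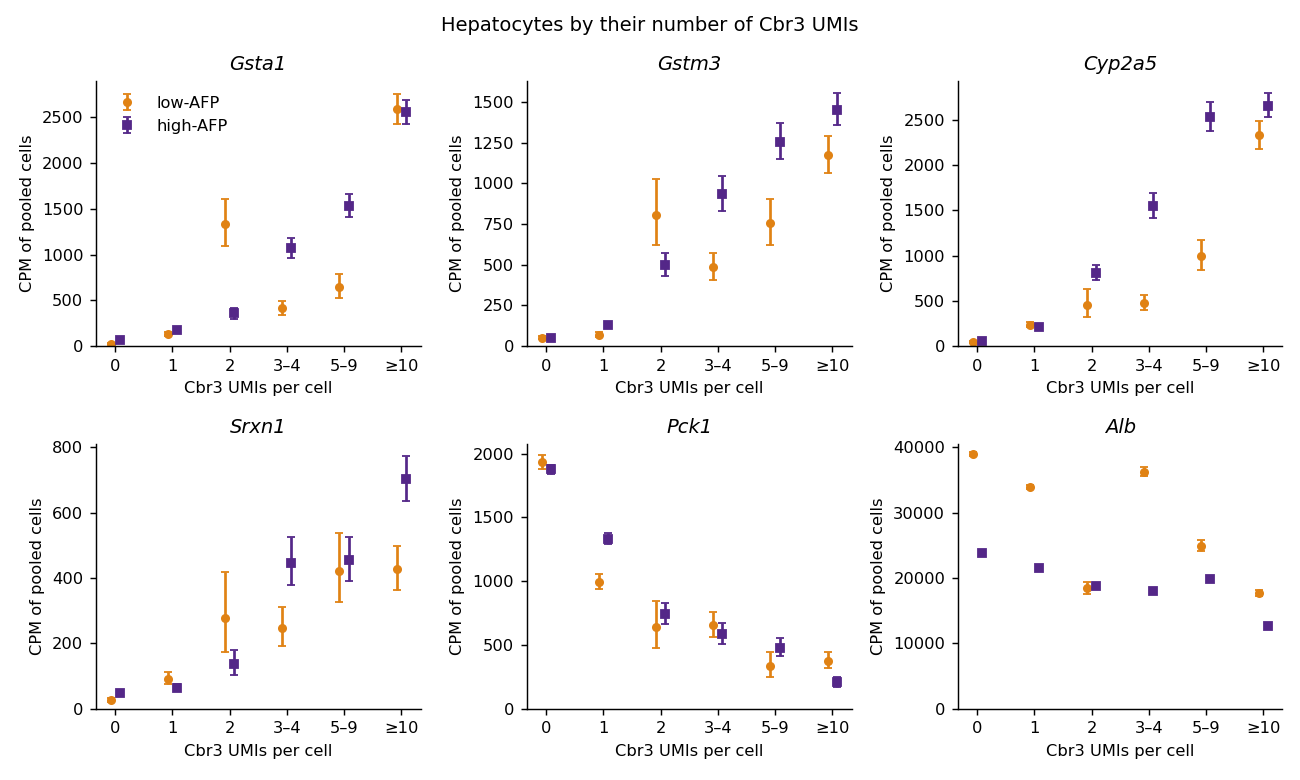
CPM of 6 genes in pools of hepatocytes by their number of Cbr3 UMIs, in low-AFP (orange circles) and high-AFP (purple squares), with exact Poisson 95% intervals; class 0 is the depth-matched Cbr3-zero pool. In high-AFP Gsta1 runs up to 2553 CPM and Pck1 down to 209 CPM at 10 or more Cbr3 UMIs.

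The 4% limit on hepatocyte transcripts ran through the Cbr3-positive cells of high-AFP. Of barcodes with at least 2 Cbr3 UMIs and no Afp or Ptprc UMI, 47 had 4 to under 5% of their nuclear-encoded UMIs in the 5 hepatocyte genes, just inside the rule, and 55 had 3 to under 4%, just outside. Their pooled Cbr3 level was 844 CPM inside and 1606 CPM outside, and their median mitochondrial share 10.5% and 2.78%. In low-AFP the bands just inside and just outside the limit held 9 and 7 cells, at 903 and 368 CPM. Barcodes at 1 to under 4% numbered 20 in low-AFP, 187 in high-AFP, 38 in HCC and 2 in control, and were no members. Set against those of high-AFP, the members had Gstm1 at 15583 against 27814 CPM, Gsta1 at 1516 against 3534 CPM and Cbr1 at 498 against 1343 CPM. The periportal genes were mixed: their sum was 8930.2 CPM in members against 10089.9 CPM, Pck1 was at 469 against 309 CPM and Cps1 at 740.3 against 186 CPM, while Ass1 was at 1100 against 2205 CPM. Those of HCC had Gstm1 at 24410.1 CPM, Gsta1 at 3502 CPM and Cyp2a5 at 2734 CPM, at a median depth of 2006 UMIs. Depth and mitochondrial share moved with the band, and their part was not tested.

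**Figure D5:**
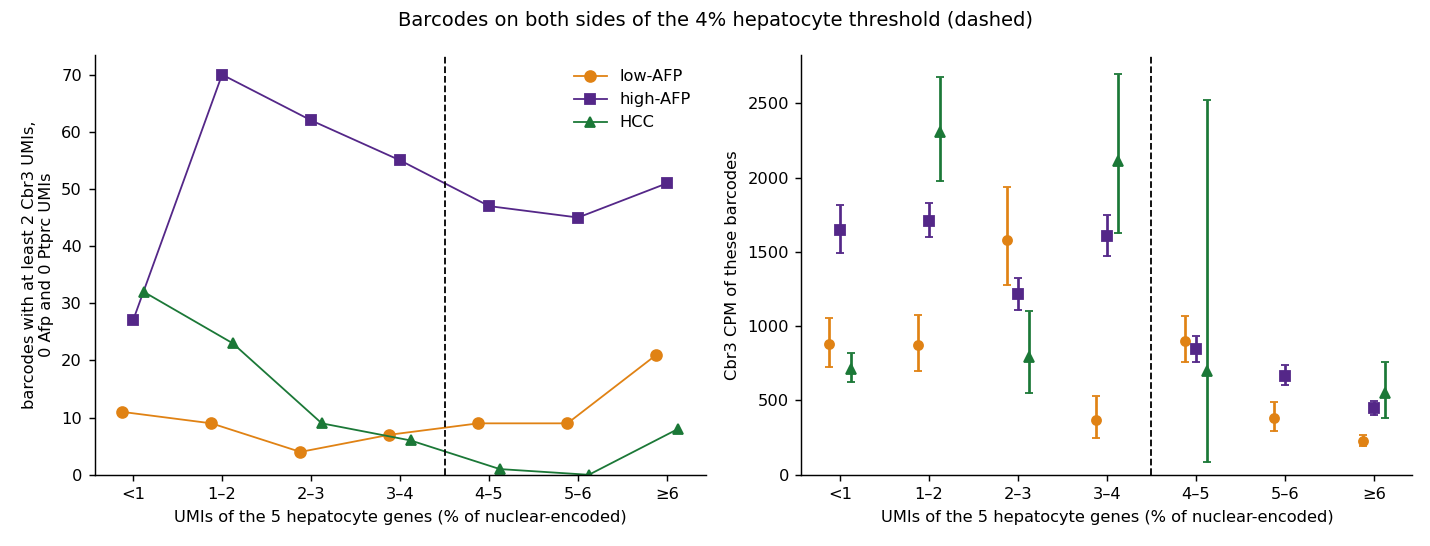
Left, number of barcodes with at least 2 Cbr3 UMIs and no Afp or Ptprc UMI by their share of UMIs in the 5 hepatocyte genes, in low-AFP, high-AFP and HCC; right, Cbr3 CPM of the same barcodes with exact Poisson 95% intervals. The dashed line is the 4% limit: in high-AFP 47 barcodes lie just above it and 55 just below.

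Promoter sequences are shown for Cbr3, which chose the cells, and for Srxn1, Ugdh and Prdx1, genes of the NRF2 list that were higher in members and whose promoters hold the searched motif. The sequences are RefSeq's, build GRCm38.p6, the 250 bases before the annotated start, 5′ to 3′ on the strand of the gene: Cbr3 at chr16:93682969-93683218 on the plus strand, Srxn1 at chr2:152105274-152105523 on the plus strand, Ugdh at chr5:65435843-65436092 on the minus strand and Prdx1 at chr4:116685349-116685598 on the plus strand. Capitals mark matches to the core of the antioxidant response element, searched as TGACNNNGC or TGAGNNNGC on either strand.
Cbr3: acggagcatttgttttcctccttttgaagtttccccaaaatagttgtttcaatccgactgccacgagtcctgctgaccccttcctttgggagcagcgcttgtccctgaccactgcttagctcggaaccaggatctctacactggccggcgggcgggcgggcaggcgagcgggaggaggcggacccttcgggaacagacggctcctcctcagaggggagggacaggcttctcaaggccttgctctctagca
Srxn1: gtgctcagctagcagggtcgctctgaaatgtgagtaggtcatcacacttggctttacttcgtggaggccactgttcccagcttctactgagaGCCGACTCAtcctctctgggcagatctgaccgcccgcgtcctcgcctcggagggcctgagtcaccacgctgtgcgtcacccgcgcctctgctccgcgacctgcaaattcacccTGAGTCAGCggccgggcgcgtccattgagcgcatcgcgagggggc
Ugdh: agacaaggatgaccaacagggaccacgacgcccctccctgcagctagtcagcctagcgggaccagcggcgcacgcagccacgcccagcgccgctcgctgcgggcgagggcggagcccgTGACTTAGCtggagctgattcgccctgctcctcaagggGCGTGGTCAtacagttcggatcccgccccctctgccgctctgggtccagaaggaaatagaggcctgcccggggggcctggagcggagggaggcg
Prdx1: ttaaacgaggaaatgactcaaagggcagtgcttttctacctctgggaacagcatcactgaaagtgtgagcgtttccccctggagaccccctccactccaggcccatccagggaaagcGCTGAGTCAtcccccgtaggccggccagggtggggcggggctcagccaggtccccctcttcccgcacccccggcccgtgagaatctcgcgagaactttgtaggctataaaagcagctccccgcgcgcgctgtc

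Srxn1 and Ugdh had 2 matches each and Prdx1 had 1, and 1 match of Srxn1 and that of Prdx1 overlap the letters TGAGTCA of an AP-1 motif. The promoters of Cbr3, Gsta1 and Gstm3 had 0. The motif was found in 6932 of 27025 promoters of this length (25.7%), in 13 of 24 of the NRF2 list with an entry (54.2%) and in 9 of 21 glutathione S-transferases (42.9%). Among the NRF2 list genes at least 2-fold higher in high-AFP members it was in 7 of 17 (41.2%), and among such transferases in 1 of 8 (12.5%), Gstp1. A match is a description of letters in this window, and no match says only that they are not in it.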

How the data were processed

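The authors deposited 10x Genomics matrices of UMI counts for 31053 genes in 4 libraries; the matrix headers name Cell Ranger 3.0.2, while mm9, Seurat 3 and R 3.0 come from the submitters' processing notes. The deposited counts were used as they are, and no free RNA was subtracted. Members and gene lists were chosen with earlier results of these data known. Each member was matched without replacement to at most 3 Cbr3-zero hepatocytes of its library within 20% of its total UMIs; counts were summed per pool and divided by the nuclear-encoded total, giving CPM. A gene was tested for the 2-fold count at 10 CPM or more in either pool, leaving out mitochondrial and rule genes. A gene that reached 10 CPM in a single pool could only come out on the side of that pool. The folds carry 10 added CPM. Intervals are exact 95% intervals (Poisson for counts, Clopper-Pearson for shares, conditional binomial for ratios). UMIs of 1 cell are not replicates, so no p-value was computed.

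Named genes were taken from the libraries with at least 50 matched members, which was high-AFP alone: genes at 10 CPM and 50 UMIs or more in the higher pool and past 2-fold, ranked by fold, the first 15 higher and 12 lower. Mitochondrial, ribosomal, haemoglobin, antigen receptor, Xist, Y-linked, unnamed and rule genes were left out of this ranking. Rule genes, markers and the list members with the largest folds were added; other genes were picked from the lists after their values were seen. Of 601 list genes 598 were in the files. The fold rule and the ratio intervals were run on simulated Poisson pools with planted folds, which carry no spread between cells. The matching was checked on the real cells, for close median depths and no reuse of a cell. Versions were Python 3.11.15, numpy 2.4.6, pandas 2.3.3, scipy 1.17.1, scanpy 1.11.5 and matplotlib 3.10.9.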

Additional observations from a re-analysis of the deposited data

Results flagged for a closer look

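Glul, glutamine synthetase of the innermost pericentral cells, lay on opposite sides in the members of both libraries, with log2 folds over Cbr3-zero cells of -1.10 in low-AFP but 0.92 in high-AFP. In low-AFP 1 cell held 70.4% of the Glul UMIs of the members. Slc1a2, a glutamate carrier of the same cells, had -0.55 in low-AFP but 1.00 in high-AFP, with 38.9% of the high-AFP UMIs in 1 cell. Saa3, an acute phase protein, had -0.72 in low-AFP but 0.51 in high-AFP, with 54.5% of the high-AFP UMIs in 1 cell. The difference between the libraries was not tested for any of the 3 genes.

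Cbr3 was also found outside the hepatocyte rule. Barcodes that did not meet the rule had at least 2 Cbr3 UMIs in 2.07% of cases in low-AFP. The share was 5.94% for high-AFP and 2.57% for HCC. All 3 lay above the 0.223% of the control library.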

How the results depend on the processing

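Over the alternatives the NRF2 redox targets had medians of 1.01 to 1.62 in low-AFP and 0.98 to 1.67 in high-AFP, and periportal genes of -1.61 to -0.66 and -1.20 to -0.68. In high-AFP the median of the fetal liver and carcinoma list (0.91) ran from 0.06 to 1.31. That of pericentral genes (0.65) ran from -0.03 to 1.00 in high-AFP, against -0.36 to 0.44 in low-AFP. The count of genes 2-fold higher in low-AFP (135) became 392 with 1 CPM added, 57 with 50 CPM added, 263 at a hepatocyte share of 8%, 207 at 5 or more Cbr3 UMIs, 203 without the deepest 5% of hepatocytes, 474 without cells that carry other lineage markers and 487 with the mean of per-cell CPM. In the same order the lower genes (79) became 215, 31, 137, 178, 142, 468 and 351, and 146 in members with at least 100 Cbr3 CPM. In high-AFP the higher genes (132) became 260 with 1 CPM added, 54 with 50 CPM and 254 at a share of 8%. The lower genes (89) became 200, 41 and 273 in that order, 185 at a mitochondrial limit of 15%, 184 at 5 or more Cbr3 UMIs, 153 without other lineage markers and 163 at a share of 1%. In HCC the higher genes (1360) became 209 with 50 CPM added, 493 with a filter of 50 CPM, 673 without matching, and 596 and 382 at shares of 2% and 1%; the lower genes (2469) became 312, 624, 1200 and 803 in that order without the unmatched setting, and 3927 at 3 or more Cbr3 UMIs.

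The share of members in low-AFP, 2.13% as reported, was 3.40% at a mitochondrial limit of 15%, 0.879% at a hepatocyte share of 8% and 4.97% with any Cbr3 UMI and no Afp UMI. In high-AFP it was 1.98% at a share of 8%, 4.07% at 3 Cbr3 UMIs, 7.50% and 8.42% at shares of 2% and 1%, and 14.9% with any Cbr3 UMI and no Afp UMI. Any Cbr3 UMI after thinning to 5000 UMIs, which changes depth and Cbr3 limit together, was found in 7.02% of the 1880 hepatocytes at least that deep. The thinned shares include cells with Afp UMIs. In HCC the share was 7.01% with any Cbr3 UMI and no Afp UMI. Thinned to 2000 UMIs, 10.5% of the 162 HCC hepatocytes deep enough had a Cbr3 UMI, and thinned to 5000 UMIs, 12% of 75. These are other sets of cells than those of the 7.01%. In control the share was 0.180% with any Cbr3 UMI and no Afp UMI. Rsad2 changed sign at a hepatocyte share of 8%, to -0.62 in low-AFP and -0.56 in high-AFP. The low-AFP folds of Fabp4 and Hamp, reported inside 2-fold, ran from -0.19 to 1.38 and from -3.05 to 0.07. The causes were not tested. Counted by gene, library and setting, 362 values of the named folds left the counting-error interval of the reported fold and 770 did not. Another 2, of folds reported past 2-fold, changed sign. Shares of 2% and 1% and the 100 Cbr3 CPM limit were chosen after seeing the data. HCC with 5 or more Cbr3 UMIs and HCC without other lineage markers were not run, for want of cells. No paired analysis was possible because each group is 1 library. The 9 HCC members and single high-count cells in low-AFP limit what the depth can show.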

Other observations

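A few genes of fat handling passed 2-fold in the Cbr3-positive hepatocytes; among all genes 1.82% were higher and 1.07% lower in low-AFP, and 1.81% and 1.22% in high-AFP. Of 20 genes of lipid droplets and fatty acid uptake, 3 were at least 2-fold higher and none lower in low-AFP members, and 4 were higher and 1 lower in high-AFP members, with median log2 folds of 0.17 and 0.22. Cidec, which enlarges lipid droplets, was at 70.7 against 17.1 CPM in low-AFP. In high-AFP Cidec was at 80.7 against 25.3 CPM. Fitm1, which helps droplets form, was at 262 against 95.4 CPM and 280.2 against 112 CPM. De novo lipogenesis had none higher and 3 lower of 17 in low-AFP; it had 1 higher and 2 lower of 17 in high-AFP, with medians of -0.31 and -0.18, and its regulator Srebf1 was at 83.1 against 185 CPM and 70.9 against 225 CPM. Fatty acid oxidation and ketogenesis had 1 of 23 higher in low-AFP and 2 of 23 in high-AFP, none lower, with medians of 0.22 and 0.34. The fasting hormone Fgf21 was at 59.5 against 22.1 CPM in low-AFP and 30.0 against 7.01 CPM in high-AFP. Cholesterol synthesis and uptake had 1 of 23 higher in each library and none lower (0.09 and 0.31), and bile acid synthesis and transport 1 of 22 higher in each, with 1 lower in low-AFP but 2 in high-AFP (-0.27 and -0.24).

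Few stress and growth genes passed 2-fold, beside the same shares of all genes. Among p53 targets and cell cycle genes 1 of 12 was lower in low-AFP, Ccnd1 (39.3 against 147 CPM), and 1 of 12 higher in high-AFP, Mdm2 (log2 fold 1.14), with medians of 0.44 and 0.58. The integrated stress and unfolded protein response had 1 of 16 higher in low-AFP and 2 of 16 in high-AFP, none lower, with medians of -0.13 and -0.08. Immediate early and heat shock genes, which cell isolation can induce, had 1 of 16 higher and none lower in low-AFP, and 1 of 17 higher and 1 lower in high-AFP, with medians of 0.12 and -0.07; the small heat shock protein Hspb1 was at 155 against 49.3 CPM and 148 against 59.8 CPM.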
